A study of Homo sapiens with 8 samples.

Results

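Interferon-stimulated effector genes are the genes that a cell switches on after an interferon binds its receptor, and their products act against viruses inside that cell. A list of 44 such genes was followed here in sublines of 2 human esophageal squamous carcinoma lines. A member was any gene of the list with at least 1 probe set annotated with its symbol alone, under a current or older name, and each gene was read from the probe set with the highest mean over all arrays. All 44 genes had such a probe set, among 19775 genes on the array, and 39 passed the filter on low signal (a mean log2 signal of at least 4.46 over the 8 arrays) and were tested.

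KYSE30 and KYSE180 are established epithelial lines, and the labels describe the tumor of origin as well differentiated. Cells were put through 4 rounds of transwell selection, in which moving cells cross a porous membrane. The groups are 30U and 180U, the fractions that stayed above the membrane, and 30D and 180D, the fractions that crossed it and are labelled as the more motile ones. Harvested cells were then grown for 2 passages before RNA was taken, and the labels name no interferon or virus treatment. Each of the 4 groups has 2 arrays, 8 in all, and the arrays come from 4 parental populations selected independently, each of which gave 1 U and 1 D subline. A group is therefore 2 selected populations of 1 line, and U is a selected fraction too, not the unselected parent. The values are log2 signals, so a difference of 1 is a doubling of the measured signal.

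The arrays had like distributions, with medians of 5.02 to 5.04. The signal of the 3′ probe set of ACTB over that of its 5′ probe set, a sign of how complete the RNA was, stood at 1.92 (log2) on 180D replicate 1 and at 1.06 to 1.42 on the other 7 arrays, so counts in KYSE180 are also given without that array. The epithelial genes CDH1 and EPCAM were high on every array (11.65 to 11.85 and 12.27 to 12.65). Of the basal squamous keratins, KRT14 read 13.34 to 13.64 in KYSE180 and 3.45 to 4.27 in KYSE30, below the filter value on all 4 KYSE30 arrays, and KRT5 was near that value there (4.48 to 4.84). Some markers moved with the fractions: KRT14 by 0.59 and SFN by 0.24 in 30D (adjusted p 0.00892 and 0.0218), and the fibroblast gene COL1A1 by 0.58 in 180D (adjusted p 0.035). KRT14 passed the filter only through its KYSE180 arrays, so its call in 30D rests on signals below the filter value. Without 30U replicate 2 its change was 0.51. The calls of SFN and COL1A1 were lost with the block (adjusted p 0.0553 and 0.108). The part of these 3 markers in the results below was not tested. The leukocyte gene PTPRC read 2.69 to 3.10. Of 10 leukocyte markers with a probe set, 6 were below the filter, and their mean lay between 4.19 and 4.20 on the 30U arrays, 4.10 and 4.18 in 30D, 4.12 and 4.15 in 180U, and 4.10 and 4.25 in 180D. Since RNA was taken from whole cultures, a change in the share of expressing cells and a change in RNA per cell cannot be told apart in any value below.

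Type I and type III interferons signal through receptor-bound JAK kinases to the transcription factor complex ISGF3, which binds DNA through IRF9. ISGF3 binds the interferon-stimulated response element (ISRE), which holds repeated GAAA units, whereas interferon gamma acts mainly through the gamma-activated site (GAS). The induced proteins sense foreign RNA, degrade or block it, trap virus at membranes, or attach the ubiquitin-like protein ISG15 to other proteins. Epithelial cells can also express a part of this set at a steady level with no infection.

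The response elements can be read in the members' promoters. The RefSeq promoter tables (GRCh38.p14) hold windows of 300 bases, 250 before the start of transcription and 50 from it on, for 35 of the 44 genes. No window was at hand for IFITM2, DHX58, OAS2, LAMP3, GBP2, MX2, USP18, OASL and TRIM22. The ISRE core GAAANNGAAA was searched on both strands (TTTCNNTTTC on the printed strand is a match to the other one). It was found in 25 of 35 members, 71.4%, against 3.57% of all 35116 promoter windows and 4.38% of 27305 genes. The GAS core TTCNNNGAA, which reads the same on both strands, was found in 13 of 35 members, 37.1%, against 7.66% of windows and 9.38% of genes. In 6 member windows a GAS match overlapped an ISRE match, so these counts share letters. An ISRE core was in 12 members at least 2 times in 1 window, and in IFI6, IFIH1 and HERC5 it was there 3 times.

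The 160 bases before the start site are shown for 6 genes with an ISRE core, because these genes carry the different patterns below: opposed in the lines (IFI6, IFI27), higher in D in both (DDX60, IFITM3), higher in D in KYSE30 with no call in KYSE180 (ISG15), and the reverse (HERC5). Each runs 5′ to 3′ in the direction of its gene, and capitals mark ISRE cores on either strand. IFI6 lies at chr1:27672193-27672352 (minus strand), IFI27 at chr14:94110576-94110735 (plus), DDX60 at chr4:168318753-168318912 (minus), IFITM3 at chr11:320861-321020 (minus), ISG15 at chr1:1013337-1013496 (plus) and HERC5 at chr4:88456959-88457118 (plus).
IFI6: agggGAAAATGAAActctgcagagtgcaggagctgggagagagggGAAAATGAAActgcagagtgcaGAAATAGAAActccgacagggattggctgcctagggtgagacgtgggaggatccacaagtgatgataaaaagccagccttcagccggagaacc
IFI27: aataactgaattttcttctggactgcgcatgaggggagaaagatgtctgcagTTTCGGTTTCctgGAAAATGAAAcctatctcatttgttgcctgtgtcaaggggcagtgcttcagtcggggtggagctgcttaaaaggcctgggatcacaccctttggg
DDX60: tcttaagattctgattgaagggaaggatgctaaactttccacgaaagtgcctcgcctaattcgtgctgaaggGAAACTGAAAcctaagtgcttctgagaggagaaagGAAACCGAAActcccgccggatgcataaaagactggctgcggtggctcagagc
IFITM3: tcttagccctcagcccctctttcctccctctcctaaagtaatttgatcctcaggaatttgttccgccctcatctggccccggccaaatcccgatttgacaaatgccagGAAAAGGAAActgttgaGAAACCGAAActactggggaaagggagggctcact
ISG15: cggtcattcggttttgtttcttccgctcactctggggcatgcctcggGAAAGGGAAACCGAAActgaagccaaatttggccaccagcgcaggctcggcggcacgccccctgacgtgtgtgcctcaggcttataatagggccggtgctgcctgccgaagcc
HERC5: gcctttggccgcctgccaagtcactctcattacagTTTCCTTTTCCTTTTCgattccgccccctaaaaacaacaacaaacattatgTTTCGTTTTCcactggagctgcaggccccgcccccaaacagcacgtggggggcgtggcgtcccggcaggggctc
The first letters of the IFI6 matches are at -156, -115 and -93 from the start site. In ISG15 and in HERC5 a pair of matches overlaps within 1 run of capitals. The 6 genes were picked among those with a core, so their cores are no sign of a pattern, and IFI16, which rose in both lines, has windows with no match. Of members with a window, 18 of the 26 that rose in 30D held an ISRE core, as did 4 of the 5 tested members that did not pass in 30D. A match is a run of letters, and binding was not measured.

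The first comparison asks how the genes differ between the fraction of KYSE30 that crossed the membrane and the one that did not. In 30D, 29 of 39 tested members rose and none fell, 74.4%, beside 16.5% of all 14180 tested genes called in either direction, 8.42% called higher and 8.12% lower (limma, Benjamini-Hochberg adjusted p under 0.05). At an unadjusted p under 0.05, 32 members were higher and 1, MX1, was lower, and the share of all genes at that threshold was not counted. Both KYSE30 group means of MX1 were below the filter value. The rises ran from 0.33 to 1.96 on the log2 scale, and 9 were at least 2-fold, a size that 0.205% of all genes reached upward. The median change of the members was 0.71, and that of all genes was 0.01 with a 10th to 90th percentile range of -0.24 to 0.25. Both 30D arrays lay above both 30U arrays for 34 members and below for 1 (MX1), beside 33.8% and 30.9% of all genes. The genes whose change did not pass were MX1, MX2, OAS2, OASL, DHX58, HERC5, CMPK2, TRIM21, BST2 and GBP2.

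In KYSE180 the same comparison gave 7 calls. IFI16, IFITM2, IFITM3, DDX60 and HERC5 were higher in 180D, and IFI6 and IFI27 were lower. This is 17.9% of members, beside 3.75% of all genes called in either direction, 2.55% higher and 1.21% lower. With an unadjusted p under 0.05 as the threshold, 15 members were higher and 6 lower, again with no share counted over all genes. The median change was 0.14 in the members and 0.02 in all genes, whose 10th to 90th percentile range was -0.16 to 0.20. The KYSE180 arrays separated upward for 22 members and downward for 9, beside 26.6% and 18.0% of all genes. With arrays centred on their medians the 7 calls became 4, 2 higher and 2 lower. When each U and D pair of a parental population was blocked, 1 of 39 members was left, IFI27, beside 230 of all 14180 genes. There were 2 calls without 180D replicate 1, 4 without 180D replicate 2, 1 without 180U replicate 1 and 2 without 180U replicate 2. Leaving out any KYSE30 array, which lowers the shared degrees of freedom, left 3.

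**Figure D1:**
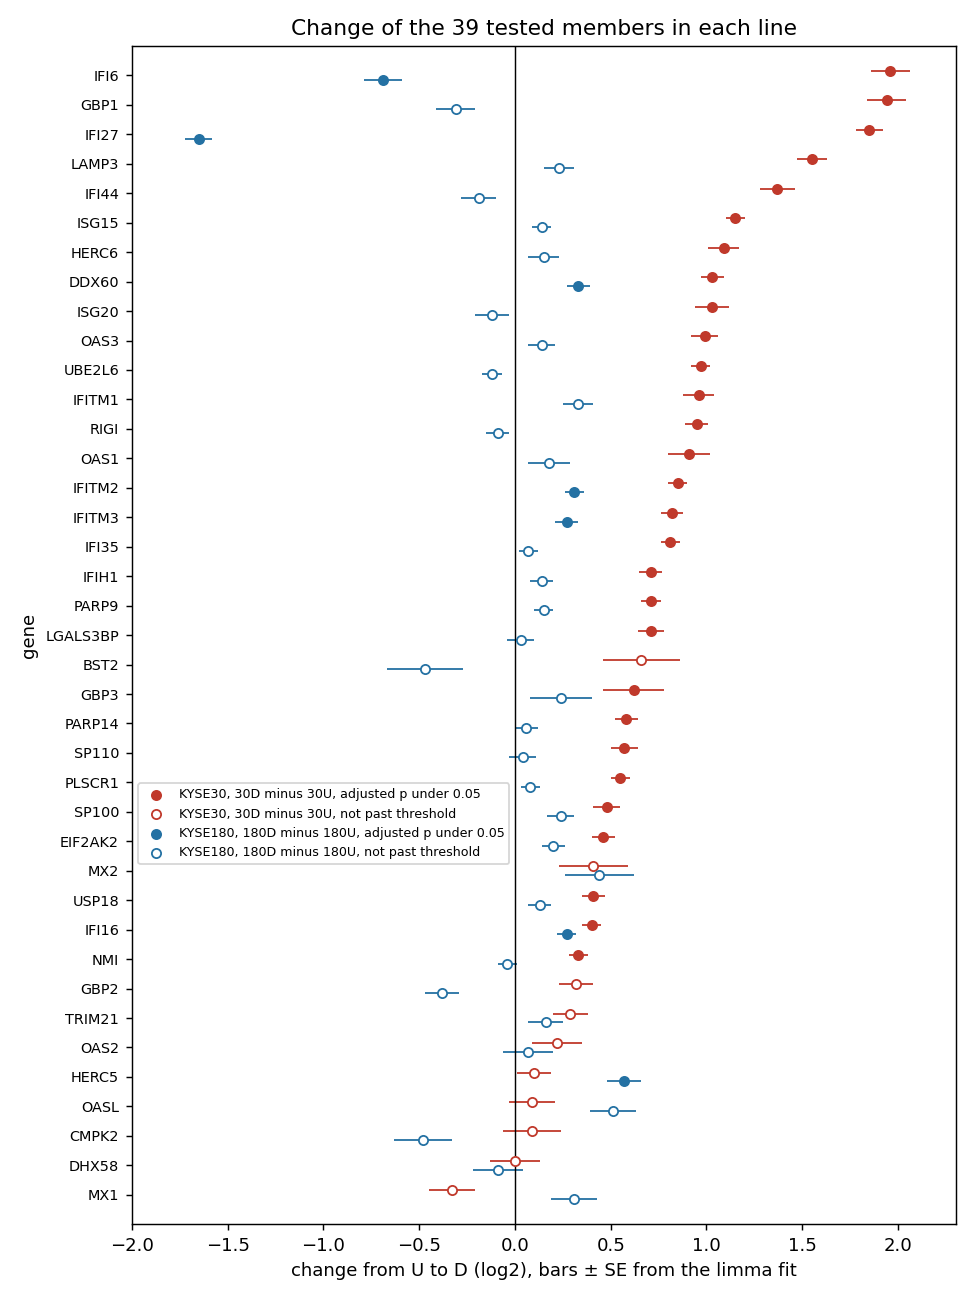
Change from U to D (log2) of the 39 tested members in KYSE30 (red) and KYSE180 (blue), ordered by the KYSE30 change; bars are the standard error from the limma fit, and filled points passed the adjusted p threshold of 0.05. The red points run from -0.33 for MX1 to 1.96 for IFI6, and the blue ones from -1.65 for IFI27 to 0.57 for HERC5.

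The test of the difference itself, the change in KYSE180 minus the change in KYSE30, was passed by 26 of 39 members, 66.7%, beside 12.2% of all genes in either direction, 5.21% downward and 6.94% upward. In all 26 the change was lower in KYSE180, with adjusted p from 7.44e-06 to 0.0414. At an unadjusted p under 0.05, 30 were lower and 3 higher, with no share counted over all genes. The median difference was -0.57 in members and 0.01 in all genes. Of the 23 members called in KYSE30 alone, 19 passed this test. The 4 that did not were USP18, GBP3, SP100 and EIF2AK2, so a difference between the lines was not shown for them. The 23 were picked by the same 30U and 30D arrays that enter this test, which favours passing it. How many of all genes called in KYSE30 alone passed was not counted, so the 19 are a description. With the parental population as a block, 22 of the 26 passed, and OAS1, GBP2, SP110 and NMI did not (adjusted p 0.0671, 0.0528, 0.0571 and 0.0622).

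The lines also differed in level. Averaging U and D, 19 members were higher in KYSE180, 16 were lower and 4 did not pass (IFI35, OAS2, TRIM21 and EIF2AK2), 89.7% called beside 71.4% of all genes, 38.7% higher and 32.7% lower. Of these, 10 were at least 2-fold higher and 10 at least 2-fold lower. For all genes the 10th to 90th percentile range of this log2 difference was -0.91 to 0.88. The 30U group had the lowest mean of the 4 groups for 21 members and the highest for none. The 30D group had the highest mean for 22, 180D for 10 and 180U for 7. Such orders of the group means were not counted over all genes, so they describe the members alone. For IFI6, IFI27, IFI35, IFITM3, HERC6, PLSCR1 and EIF2AK2 the 30U mean was below that of 180U and the 30D mean above that of 180D. For HERC6 the 30D and 180D arrays overlapped, and for EIF2AK2 the difference in change did not pass, so for these the means alone give that order.

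**Figure D2:**
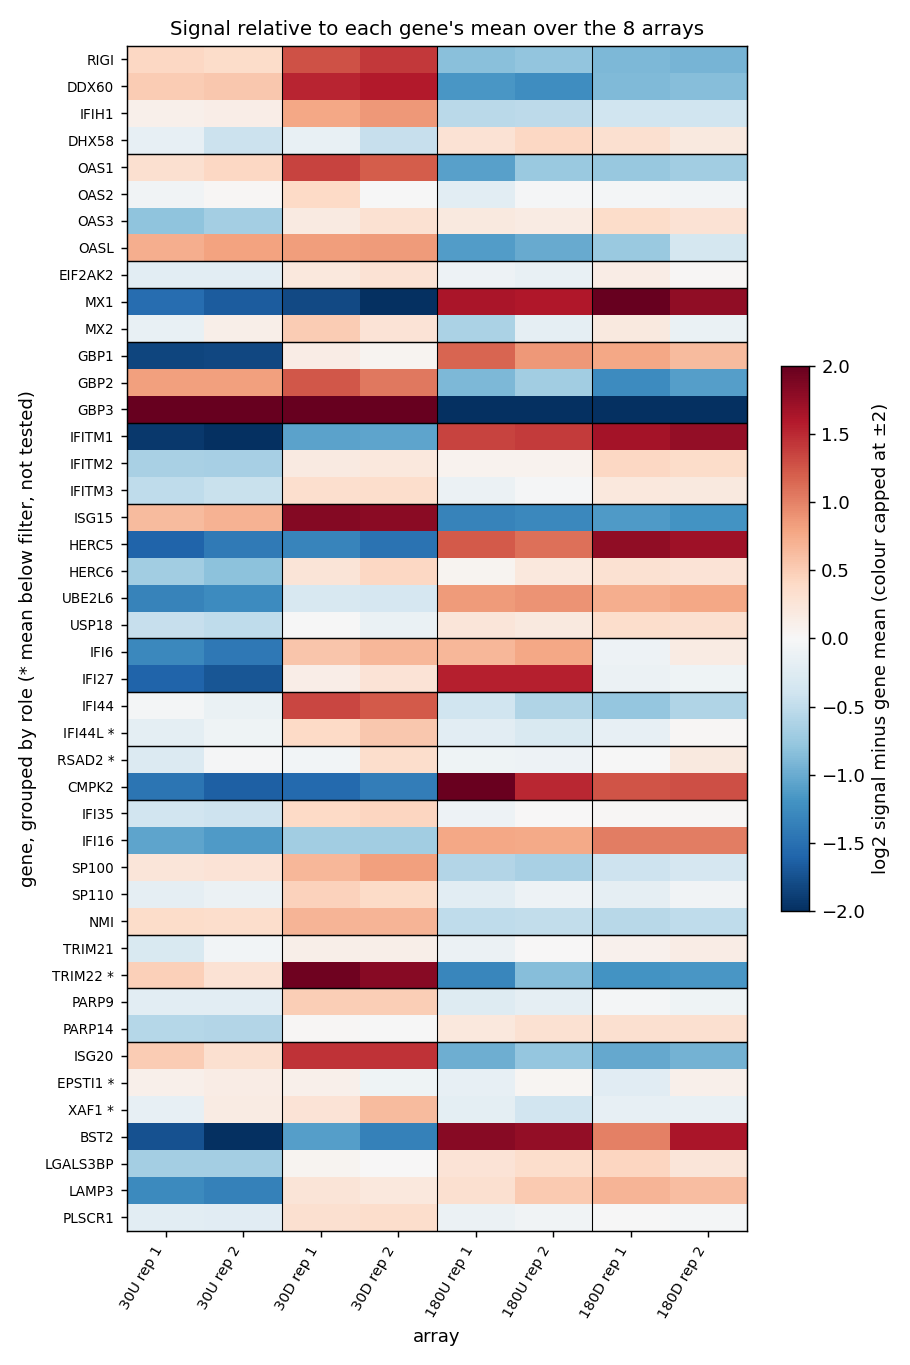
Log2 signal of each of the 44 members on each of the 8 arrays, minus the gene's own mean over the arrays, with genes grouped by role; colours stop at ±2, and an asterisk marks the 5 genes below the filter. Most rows are redder in 30D than in 30U, while 180U and 180D look alike in most rows and IFI6 and IFI27 are paler in 180D.

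Cytoplasmic RNA sensors start the antiviral response when they meet double-stranded or unusually capped RNA. Of the 4 here, 3 rose in 30D, and 1 of these, DDX60, also rose in 180D. DDX60, a helicase reported to help RIG-I, read 7.69 and 7.71 in 30U and 8.70 and 8.76 in 30D. In KYSE180 it read 6.02 and 5.93 in 180U and 6.29 and 6.33 in 180D. Each D array was above each U array of its line, and even the 180D arrays were below the 30U ones. The change was 1.03 ± 0.06 (SE, n = 2 arrays a group; limma adjusted p 0.000113) in KYSE30 and 0.33 ± 0.06 (adjusted p 0.027, 0.0747 with the block) in KYSE180, and the difference of -0.70 passed the test (adjusted p 0.0029).

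RIGI, which encodes the sensor RIG-I, rose by 0.95 in 30D and changed by -0.09 in 180D (difference -1.05). IFIH1, which encodes the long-RNA sensor MDA5, rose by 0.71 in 30D, with 0.14 in 180D (difference -0.57). Both were lower in KYSE180 than in KYSE30, by -1.73 and -0.94. DHX58 encodes LGP2, a relative without a signalling domain that tunes these sensors. It read 5.45 and 5.18 in 30U and 5.47 and 5.16 in 30D, so the groups overlapped, and its difference between the lines ran the other way (0.60 higher in KYSE180).

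The OAS enzymes make short 2′,5′-linked oligoadenylates that activate RNase L, which cuts RNA. OAS3 read 7.48 and 7.60 in 30U and 8.46 and 8.59 in 30D, a rise of 0.99 ± 0.07. The mean of its 2 probe sets gave 0.57 (adjusted p 0.00503). It read 8.49 and 8.45 in 180U and 8.66 and 8.57 in 180D, where the change of 0.14 did not pass (adjusted p 0.32). The 180U arrays were thus at the level of 30D. OAS1 rose by 0.91 in 30D, with 0.18 in 180D, and its probe set of largest variance gave 1.39 in 30D.

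OAS2, by the probe set with the highest mean, read 4.53 and 4.63 in 30U and 5.0 and 4.60 in 30D, close to the filter value and overlapping. Another OAS2 probe set of nearly the same mean, looked at after the values were seen, read 4.35 and 4.53 in 30U and 5.84 and 5.79 in 30D, 1.38 higher in 30D, so the lack of a call for OAS2 depends on the probe set. OASL, an OAS relative without that enzyme activity, changed by 0.09 in 30D and by 0.51 in 180D (adjusted p 0.0652); without 180D replicate 1 the latter was 0.71 and passed (adjusted p 0.014). EIF2AK2 encodes PKR, the kinase that halts translation on double-stranded RNA, and rose by 0.46 in 30D, with 0.20 in 180D (adjusted p 0.141).

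The MX proteins are GTPases that block incoming viral nucleocapsids. MX1 read 4.49 and 4.35 in 30U, 4.22 and 3.96 in 30D, 7.65 and 7.62 in 180U, and 8.09 and 7.79 in 180D. It was the member with the largest rise from KYSE30 to KYSE180, 3.53 ± 0.09 (adjusted p 2.17e-08). The KYSE30 mean was below the filter value, so KYSE180 was at least 10.1-fold higher when set against that value. Within the lines MX1 went down by value in 30D (-0.33, adjusted p 0.114) and up in 180D (0.31, adjusted p 0.226), with no overlap of arrays in either line and no call. The difference of 0.64 did not pass (adjusted p 0.0536) but did without 180D replicate 2 (0.79, adjusted p 0.0323). MX2 changed by 0.41 and 0.44, with no call.

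Guanylate-binding proteins are GTPases best known as targets of interferon gamma that act on vacuoles holding microbes. The 3 genes lie side by side on chromosome 1, in the order GBP3, GBP1, GBP2 with no other protein-coding gene between, and each had its own pattern. GBP1 read 4.69 and 4.71 in 30U and 6.68 and 6.59 in 30D, a rise of 1.94 ± 0.10 (adjusted p 0.000106). In KYSE180 it read 7.70 and 7.39 in 180U and 7.31 and 7.17 in 180D, -0.31 with no call (adjusted p 0.17) and arrays that did not overlap. The difference between the changes, -2.24 ± 0.15 (adjusted p 0.000284), was the third largest in the list after IFI27 and IFI6.

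GBP3 read 9.38 and 9.33 in 30U, 9.94 and 10.01 in 30D, 3.71 and 4.18 in 180U, and 4.35 and 4.03 in 180D. It was the member with the largest difference in level between the lines, -5.60 ± 0.11 (adjusted p 9.18e-09), and all 4 KYSE180 arrays were below the filter value, so KYSE30 was at least 37.0-fold higher. Its rise of 0.62 in 30D passed (adjusted p 0.0389) but no longer did when any KYSE30 array was left out (adjusted p 0.121 to 0.159). For GBP2 the direction depends on the probe set. A further one, below the filter through its KYSE180 arrays and looked at after the values were seen, read 5.81 and 6.03 in 30U and 4.84 and 5.07 in 30D. It changed by -0.96 in 30D and by -0.09 in 180D. The GBP2 probe set used changed by 0.32 in 30D (adjusted p 0.0571) and by -0.38 in 180D (adjusted p 0.081). Neither passed, while the difference of -0.70 did (adjusted p 0.0176), a call lost when 1 of 5 arrays was left out, namely either 30U array, the first 30D or 180D one, or the second 180U one (adjusted p 0.0514 to 0.062).

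IFITM proteins sit in cell and endosome membranes and hinder virus fusion. All 3 rose in 30D, and IFITM2 and IFITM3 also rose in 180D. IFITM2 read 9.69 and 9.67 in 30U, 10.51 and 10.54 in 30D, 10.41 on both 180U arrays, and 10.74 and 10.70 in 180D. Its changes were 0.85 ± 0.05 and 0.31 ± 0.05 (adjusted p 0.000128 and 0.0218, the latter 0.0869 with the block). IFITM3 read 10.88 and 10.94 in 30U, 11.72 and 11.73 in 30D, 11.26 and 11.36 in 180U, and 11.59 and 11.57 in 180D. Its changes were 0.82 ± 0.06 and 0.27 ± 0.06 (adjusted p 0.000292 and 0.0497, the latter 0.114 with the block).

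For both genes the D arrays were above the U arrays in each line, and the rise was larger in KYSE30, with a difference of -0.55 each. IFITM1 read 6.44 and 6.24 in 30U, 7.29 and 7.31 in 30D, 9.72 and 9.77 in 180U, and 10.03 and 10.12 in 180D. It rose by 0.96 in 30D, and 0.33 in 180D did not pass (adjusted p 0.0674). IFITM1 was 3.09 ± 0.05 higher in KYSE180, while its neighbours IFITM2 and IFITM3 on chromosome 11 differed by 0.46 and 0.13. These genes are alike in sequence, and probes may be shared between them: a probe set annotated with both IFITM2 and IFITM1 was left out.

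ISG15 is a ubiquitin-like protein that UBE2L6 and a HERC ligase attach to other proteins and that USP18 removes. ISG15, UBE2L6, HERC6 and USP18 rose in 30D, and HERC5 in 180D. ISG15 read 10.31 and 10.38 in 30U and 11.51 and 11.48 in 30D, a rise of 1.15 ± 0.05 (adjusted p 7.45e-05). In KYSE180 it read 8.35, 8.39, 8.54 and 8.48 over 180U and 180D, with a change of 0.14 (adjusted p 0.21). The D arrays were above the U arrays there too, but by little, and KYSE180 was lower by -2.48.

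HERC5, the main ISG15 ligase in human cells, read 3.51 and 3.70 in 30U and 3.79 and 3.63 in 30D, all below the filter value. It read 6.33 and 6.21 in 180U and 6.88 and 6.81 in 180D, a rise of 0.57 ± 0.09 (adjusted p 0.0189, 0.0852 with the block). It was the member called in KYSE180 alone, but the difference from KYSE30 did not pass (0.47, adjusted p 0.0534), and leaving out any KYSE180 array lost the call (adjusted p 0.051 to 0.108). HERC5 was 2.90 ± 0.06 higher in KYSE180, at least 4.29-fold against the filter value.

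HERC6, its neighbour on chromosome 4, read 6.50 and 6.37 in 30U, 7.45 and 7.61 in 30D, 7.24 and 7.41 in 180U, and 7.49 and 7.47 in 180D. It rose by 1.09 ± 0.08 in 30D, with 0.15 in 180D, so of these neighbours HERC6 was called in KYSE30 and HERC5 in KYSE180. UBE2L6, the conjugating enzyme, rose by 0.97 in 30D and changed by -0.12 in 180D (difference -1.09). USP18, which also damps the interferon receptor, rose by 0.41, with 0.13 in 180D, a difference that did not pass (-0.28, adjusted p 0.0786).

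IFI6 and IFI27 encode small hydrophobic proteins of 1 family, placed at the endoplasmic reticulum and mitochondria, and they were the members called in opposite directions, which 1.06% of all genes were. IFI6 read 6.59 and 6.44 in 30U and 8.42 and 8.53 in 30D, and 8.54 and 8.65 in 180U and 7.77 and 8.04 in 180D. It rose by 1.96 ± 0.10 in KYSE30 (3.90-fold, adjusted p 0.000102) and fell by 0.69 ± 0.10 in KYSE180 (adjusted p 0.0161, 0.0737 with the block). The fall was -0.55 without 180D replicate 1 (adjusted p 0.0719), and it did not pass without either 180U array (adjusted p 0.06 and 0.0974). The difference between the lines, -2.65 ± 0.15, passed at an adjusted p of 0.000132.

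IFI27 read 3.90 and 3.79 in 30U and 5.63 and 5.77 in 30D, a rise of 1.85 ± 0.07 (adjusted p 2.5e-05) from below the filter value, at least 2.36-fold against it. It read 7.06 on both 180U arrays and 5.39 and 5.42 in 180D, so it fell by 1.65 ± 0.07 (3.14-fold, adjusted p 6.78e-05). The KYSE180 call held under each alternative that tested the gene, the block included, which none of the other 6 did; the filter at the 60th percentile left IFI27 out. The D groups of the lines read 5.63 to 5.77 and 5.39 to 5.42, close to each other, while the U groups lay below the filter value in KYSE30 and at 7.06 in KYSE180. The difference of -3.50 ± 0.09 was the largest in the list.

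**Figure D3:**
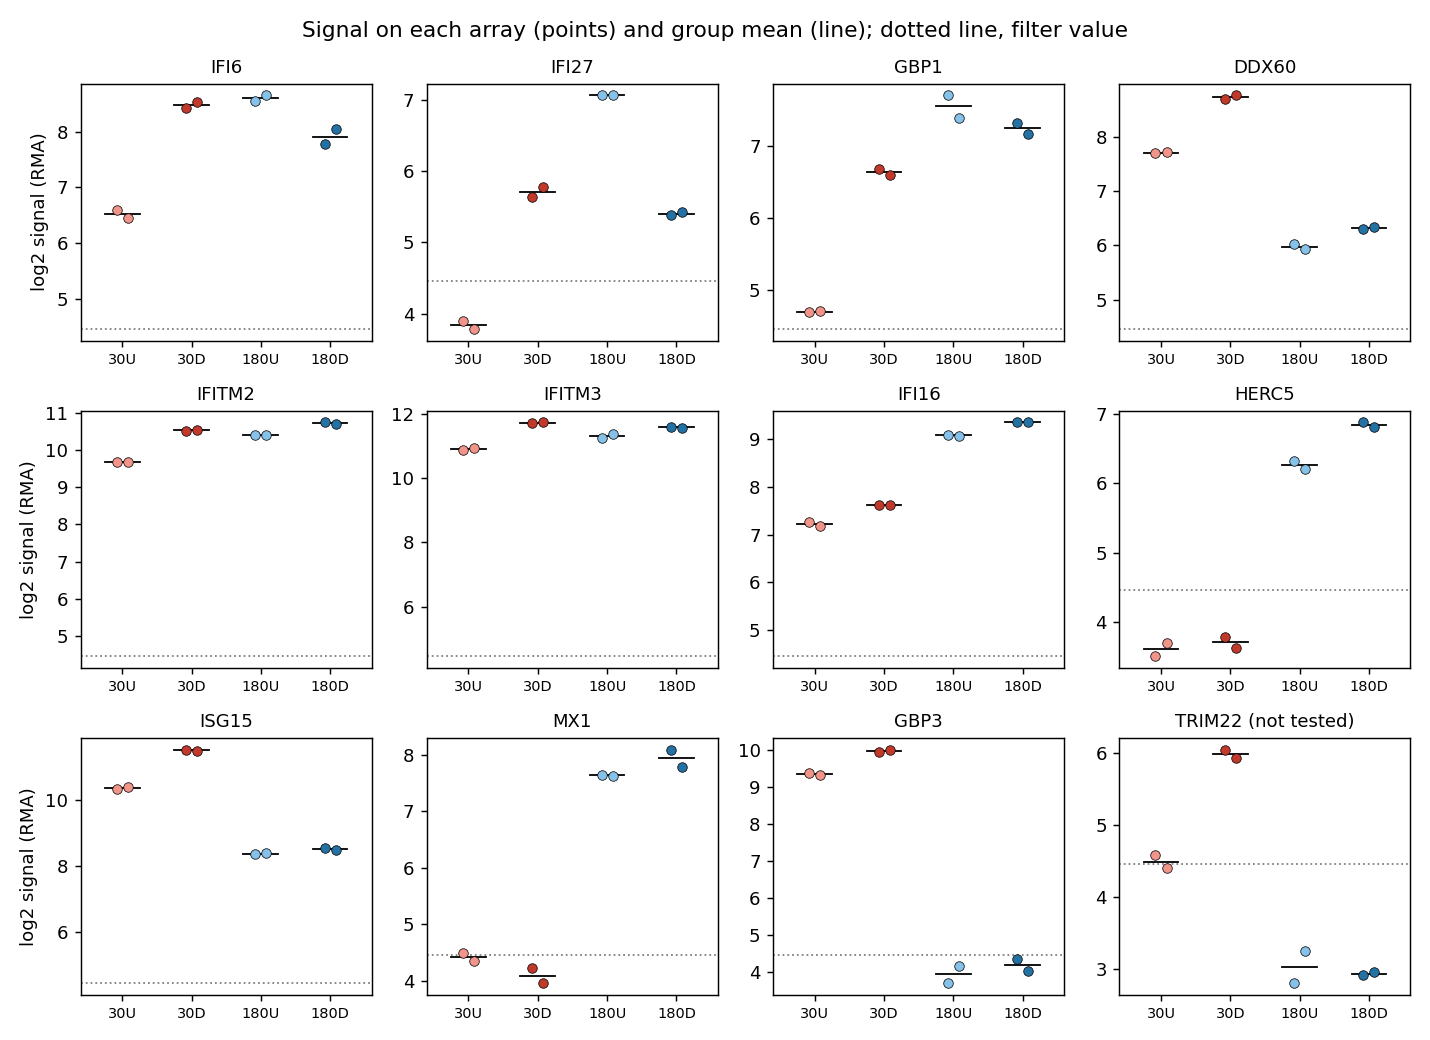
Log2 signal on each array (points) and group means (lines) for 12 members; the dotted line is the filter value of 4.46 and the vertical axes differ between panels. IFI6 and IFI27 rise from 30U to 30D and fall from 180U to 180D, DDX60, IFITM2, IFITM3 and IFI16 rise in both, and MX1, HERC5 and GBP3 differ mainly between the lines.

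The nuclear and signalling-adapter members were called in KYSE30 throughout. IFI16, a DNA sensor of the nucleus, read 7.27 and 7.19 in 30U, 7.62 on both 30D arrays, 9.09 and 9.07 in 180U, and 9.35 on both 180D arrays. It rose by 0.40 ± 0.05 and 0.27 ± 0.05 (adjusted p 0.00348 and 0.0371, the latter 0.112 with the block), and its changes did not differ by test (-0.12, adjusted p 0.321). The KYSE180 rise rests on 1 probe set: the other 2 gave 0.13 and -0.01. SP100 and SP110, chromatin proteins of nuclear bodies, rose by 0.48 and 0.57 in 30D. IFI35 and its partner NMI rose by 0.81 and 0.33. None of these 4 was called in 180D, where their changes were 0.24, 0.04, 0.07 and -0.04.

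PARP9 and PARP14, which attach or read ADP-ribose, rose by 0.71 and 0.58 in 30D, with 0.15 and 0.06 in 180D. With the mean of its probe sets PARP9 rose by 0.37, and the difference between the lines no longer passed (-0.16, adjusted p 0.235). IFI44, a cytoplasmic protein of the interferon response, read 7.27 and 7.17 in 30U, 8.64 and 8.53 in 30D, 6.91 and 6.71 in 180U, and 6.54 and 6.71 in 180D. It rose by 1.37 ± 0.09 in KYSE30 and had no call in KYSE180 (-0.19, adjusted p 0.326). LAMP3, a lysosomal membrane protein, read 6.63 and 6.55 in 30U, 8.16 and 8.11 in 30D, 8.21 and 8.42 in 180U, and 8.58 and 8.51 in 180D. It rose by 1.55 ± 0.08 in KYSE30, so that 30D came close to 180U, and the 0.23 in KYSE180 did not pass (adjusted p 0.175).

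ISG20, an exonuclease for RNA, read 7.04 and 6.85 in 30U, 7.97 and 7.98 in 30D, 5.56 and 5.76 in 180U, and 5.50 and 5.58 in 180D. It rose by 1.03 ± 0.09 in 30D, and its KYSE180 arrays overlapped. PLSCR1, a phospholipid scramblase, and LGALS3BP, a secreted glycoprotein, rose by 0.55 and 0.71 in 30D, with 0.08 and 0.03 in 180D. BST2, the tetherin that holds budding virus on the cell, read 5.39 and 5.13 in 30U, 6.03 and 5.79 in 30D, 8.96 and 8.90 in 180U, and 8.14 and 8.77 in 180D.

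The changes of BST2 (0.66, adjusted p 0.0633, and -0.47, adjusted p 0.251) did not pass, while their difference did (-1.13, adjusted p 0.0414). That call was lost with no filter (adjusted p 0.0663), with the filter at the 20th percentile (0.058), and when any 1 KYSE30 or 180U array was left out (adjusted p 0.0718 to 0.126). The 180D arrays lay apart from each other. Without either of them the rise in 30D passed (adjusted p 0.0155), and without 180D replicate 2 the fall in 180D did too (-0.79, adjusted p 0.0463). BST2 was 3.11 higher in KYSE180. CMPK2, a mitochondrial nucleotide kinase, read 3.02, 2.85, 2.93 and 3.11 on the KYSE30 arrays, all below the filter value. It read 6.47 and 6.00 in 180U and 5.74 and 5.78 in 180D, a change of -0.48 with no call (adjusted p 0.145) that passed without 180U replicate 2 (-0.71, adjusted p 0.0403). KYSE180 was at least 2.91-fold higher against the filter value. TRIM21, an antibody receptor of the cytosol, changed by 0.29 and 0.16 with no call, and its 30D change passed without 30U replicate 2 (0.42, adjusted p 0.0411).

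The 5 members below the filter were IFI44L, RSAD2, EPSTI1, XAF1 and TRIM22. RSAD2 encodes viperin and neighbours CMPK2 on chromosome 2, but it read 3.26 to 3.89 in KYSE30 and 3.43 to 3.72 in KYSE180. IFI44L, next to IFI44, read 3.21 and 3.32 in 30U and 3.81 and 3.95 in 30D. TRIM22, an antiviral ubiquitin ligase, read 4.58 and 4.40 in 30U, 6.05 and 5.93 in 30D, and 2.80 to 3.25 over the KYSE180 arrays. It failed the filter through the KYSE180 arrays, and with no filter its change in 30D was 1.50 ± 0.14 (adjusted p 0.00195).

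Members called in both lines numbered 6, beside 1.78% of all genes. IFI16, IFITM2, IFITM3 and DDX60 rose in both, beside 0.719% of all genes called in the same direction in both, and IFI6 and IFI27 were opposed. The 23 members called in KYSE30 alone stand beside 14.8% of all genes, and HERC5, called in KYSE180 alone, beside 1.97%. In neither line were 9 members called. The lines' comparisons share no array. The 4 members called higher in both became 0 with no filter, with each line fitted alone and with the block. The members still called in both there were IFI6 and IFI27, or IFI27 alone with the block. Members called higher in both numbered 1 with centred arrays and 2 with the 20th percentile filter or the largest-variance probe set. They numbered 3 with the mean of the probe sets, 5 with the 60th percentile filter and 7 with an intensity trend. With the parental population as a block the 6 members called in both became 1, and they also became 1 when 180D replicate 1 or either 180U array was left out.

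**Figure D4:**
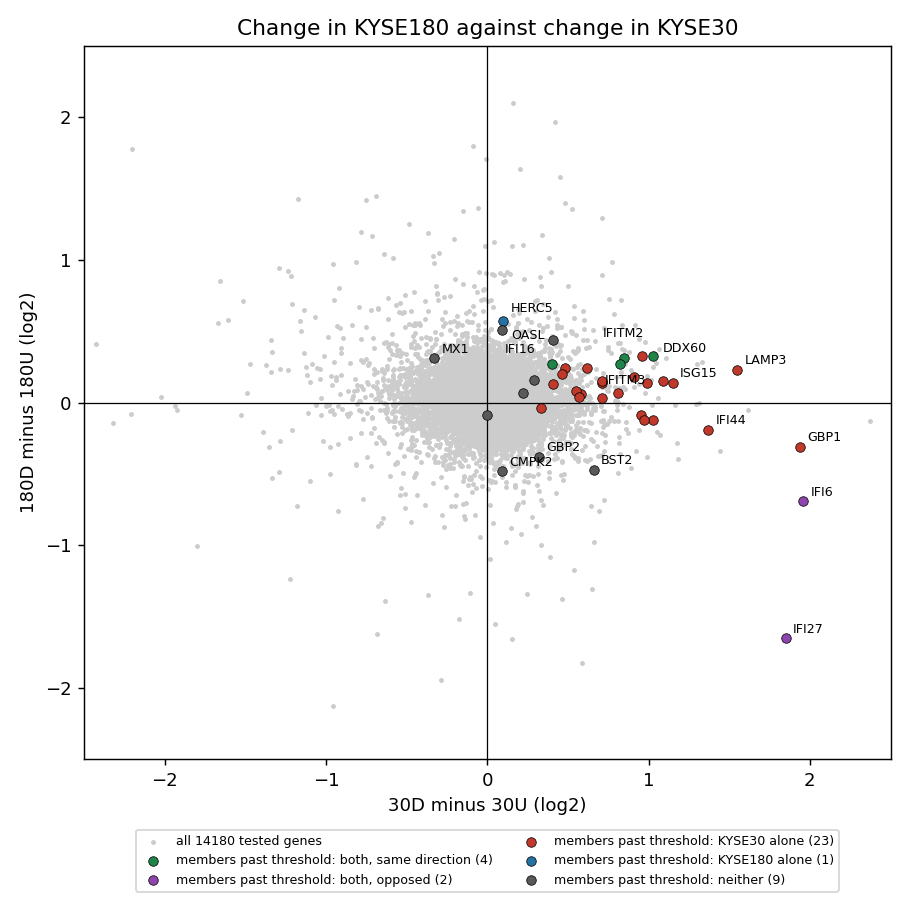
Change from U to D in KYSE180 (vertical, log2) against the change in KYSE30 (horizontal, log2) for all 14180 tested genes (grey) and the 39 tested members (coloured by the line in which they passed the threshold); 4 genes lie beyond the axes at ±2.5. Most members lie to the right of the grey cloud at heights near 0, and IFI6 and IFI27 lie at the lower right.

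The rest of the pathway was read from lists of genes that are not members. Of 10 interferon genes, 9 had a probe set and 8 were below the filter, with no array above 4.52. IFNB1, a type I interferon, read 2.97 to 3.65. IFNL1, a type III interferon, was tested, read 4.83 to 5.02 and changed by 0.10 and 0.11 with no call (adjusted p 0.375 and 0.458). A signal this low on an array puts no firm limit on the transcript.

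Of 26 tested receptor and signalling genes, 7 rose and none fell in 30D, and 3 rose and 1 fell in 180D, with median changes of 0.08 and 0.03. At an unadjusted p under 0.05, 1 was lower in 30D (PTPN2). STAT2 had no probe set annotated with 1 symbol and was not analysed here, and IRF7 was below the filter. IRF9, the DNA-binding part of ISGF3, read 7.64 and 7.67 in 30U, 8.53 and 8.60 in 30D, 8.07 and 8.10 in 180U, and 8.63 and 8.62 in 180D. It rose in both lines, by 0.91 ± 0.05 and 0.54 ± 0.05 (adjusted p 0.000113 and 0.00233, the latter 0.0212 with the block). IRF1, a main target of interferon gamma, changed by -0.02 and 0.29 with no call.

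The receptor chains IFNGR2 and IFNLR1 rose by 0.42 and 0.36 in 30D, and so did the feedback inhibitor SOCS3 (0.34). With the mean of a gene's probe sets, IFNLR1 was at 0.12 (adjusted p 0.443) and SOCS3 at 0.14 (adjusted p 0.224). The SOCS3 call was lost when any 1 KYSE30 array was left out (adjusted p 0.0737 to 0.119), and that of IFNLR1 without either 30U array or 30D replicate 2 (adjusted p 0.05 to 0.0512). In 180D the RNA sensor TLR3 and the adapter STING1 rose by 0.41 and 0.69, and the DNA sensor CGAS changed by -0.62 (adjusted p 0.034). The STING1 and CGAS calls were lost with the block (adjusted p 0.0635 and 0.114). With the probe set of largest variance STING1 was at 0.25 (adjusted p 0.207) and TLR3 at 0.34 (adjusted p 0.384). STING1 was also lost without either 180U array (adjusted p 0.087 and 0.109), TLR3 without 180U replicate 2 (adjusted p 0.0748), and CGAS when any 1 array other than 180U replicate 1 was left out (adjusted p 0.0501 to 0.15). Of 28 other tested interferon-stimulated genes, 18 rose and 2 fell (IFIT2 and TNFSF10) in 30D, while 3 rose and none fell in 180D, with median changes of 0.31 and 0.02. At an unadjusted p under 0.05, 1 was lower in 180D (SAMD9).

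The IFIT genes, whose products bind viral RNA, differed among themselves. IFIT3 read 9.53 and 9.45 in 30U, 9.45 and 9.43 in 30D, 6.17 and 5.97 in 180U, and 6.95 and 7.02 in 180D. It rose by 0.91 ± 0.08 in KYSE180 (adjusted p 0.00154, 0.00869 with the block), with -0.05 in KYSE30. IFIT2 changed by -0.49 in 30D and by 0.55 in 180D, both past the threshold, the reverse of IFI6 and IFI27. IFIT1 rose by 0.31 and 0.35. The first call was lost when any 1 KYSE30 array was left out (adjusted p 0.054 to 0.124) and the second with the block (adjusted p 0.0823). IFIT5, named after its values were seen, rose by 0.38 in 30D (adjusted p 0.00752), with -0.01 in 180D, and the difference of -0.39 (adjusted p 0.029) was lost under the block (adjusted p 0.0782). TAP1 and PSMB9, of antigen processing, rose by 0.81 and 0.68 in 30D, and the ligases TRIM14 and TRIM25 by 0.74 and 0.59.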

How the data were processed

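RNA of 8 cultures was hybridised to Affymetrix arrays with 54675 probe sets. The deposited values are log2 signals that the authors made with RMA, per the submitters' processing notes; for its version, the sources used here give none. RMA forces the arrays to like distributions, which hides any change in total RNA per cell, and low signals are compressed, which makes changes of dim genes look smaller. The microRNA arrays named in the labels were not analysed here. An array has no read depth, and 2 arrays a group limit the precision.

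Groups come from the sample titles. Of the probe sets, 41091 had 1 gene symbol in the platform annotation, 1801 several, 11721 none and 62 were controls; 41037 were matched to a current symbol by Entrez ID. The filter was a mean over the 8 arrays at or above the 40th percentile of all probe sets (log2 4.46), then the probe set with the highest mean per gene, which left 14180 genes. Levels were not set against each other between genes. limma 3.58.1 (R 4.3.3) fitted the 4 group means over all 8 arrays (lmFit, eBayes, two-sided, Benjamini-Hochberg over all tested genes, threshold 0.05), with the error being the standard error of the fit. The scripts were tested on simulated data. The replicates are separately selected populations, so p-values measure the spread between those.

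Pairs of U and D sublines of 1 parental population are given by the labels, which in KYSE180 join unequal replicate numbers. The correlation of their deviations from group means was -0.023 in KYSE30 and 0.020 in KYSE180. A fit with the parental population as a block was an alternative. Others were the filter, the choice of probe set, centring, an intensity trend, a fit to 1 line, and leaving out each array.

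Array values are printed for members called in both lines, the 10 largest calls in each line and the 6 largest differences between lines. The non-members named were up to 4 per list with the smallest p in each line and some signalling genes set beforehand. Among these, array values are printed for IRF9 and IFIT3 and ranges for IFNB1 and IFNL1, and most others are given by their changes. The members and lists were chosen with earlier results of these data known, so their counts are descriptions.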

Additional observations from a re-analysis of the deposited data

Results flagged for a closer look

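The results here are those in which a direct test found the change from U to D to differ between the lines (limma, adjusted p under 0.05). They are given as the change in KYSE180 minus the change in KYSE30 on the log2 scale. No group has enough arrays for a test of outlying samples.

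Among the members, IFI27 (-3.50), IFI6 (-2.65) and GBP1 (-2.24) differed most. They were followed by IFI44 (-1.56) and LAMP3 (-1.32), then ISG20 (-1.16), BST2 (-1.13), UBE2L6 (-1.09), RIGI (-1.05) and ISG15 (-1.0). The antiviral enzymes and ligases OAS3 (-0.85), OAS1 (-0.73) and HERC6 (-0.94) had differences under 1. So did IFI35 (-0.74), DDX60 (-0.70), GBP2 (-0.70), LGALS3BP (-0.69) and IFITM1 (-0.63). The smaller differences were those of IFIH1 (-0.57), PARP9 (-0.56), IFITM2 (-0.55), IFITM3 (-0.55), SP110 (-0.53), PARP14 (-0.52), PLSCR1 (-0.47) and NMI (-0.36).

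Of the genes outside the list, TAP1 (-0.82), CGAS (-0.84), TRIM14 (-0.65), TRIM25 (-0.58), PSMB9 (-0.50), IFNGR2 (-0.47), IRF9 (-0.37) and IFNLR1 (-0.35) differed in the same direction. IFIT2 (1.04), IFIT3 (0.97) and TLR3 (0.35) differed in the other direction. With the parental population as a block the calls of PSMB9, IFNGR2, IRF9, IFNLR1, CGAS and TLR3 were lost (adjusted p 0.0555, 0.0572, 0.0568, 0.0791, 0.064 and 0.0643). With the mean of the probe sets IFNLR1 was at -0.10 (adjusted p 0.71) and TLR3 at 0.27 (adjusted p 0.24).

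Named after their values were seen were IFIT5 (-0.39), SAMD9 (-0.33) and TNFSF10 (0.83), and the markers KRT14 (-0.83), SFN (-0.49) and COL1A1 (0.97, or 0.38 with the mean of its probe sets). The KYSE30 part of the KRT14 difference lies below the filter value. IFIT5 and SAMD9 were lost with the block (adjusted p 0.0782 and 0.0683). In the lists of non-members, 5 of 26 tested signalling genes and 15 of 28 tested other interferon-stimulated genes had the lower change in KYSE180. The higher change was called for 1 and 3 of them. Over all 14180 tested genes, 5.21% were called lower and 6.94% higher.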

How the results depend on the processing

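The 29 calls in 30D stayed at 28 to 32 members under every alternative run, and 27 of the 29 genes kept their call wherever they were tested; GBP3 lost it at 6 settings and NMI at 1. The filter at the 60th percentile left out IFI27 and HERC5, so 26 genes were tested and called at every setting. Leaving out 1 array at a time gave 28 to 30 calls in 30D, 1 to 4 in 180D, 21 to 26 for the difference in change, 33 to 35 for the level between the lines and 1 to 4 called in both. The 7 calls in 180D and the 6 in both lines moved most. They became 3 and 2 with no filter, 4 and 3 with arrays centred on their medians, and 12 and 10 with an intensity trend. With each line fitted alone they became 3 and 2. With no filter and with each line fitted alone, the 2 left in both lines were IFI6 and IFI27, called in opposite directions. The block of parental population, the paired fit, gave 1 and 1. It also gave 30 calls in 30D and 22 for the difference. Leaving out arrays leaves fewer degrees of freedom; the cause of the other moves was not tested. A lone array left in a group was assumed to vary like the others. Of the 26 differences in change, 19 were kept wherever the gene was tested (18 without IFI27); IFITM1, OAS1, PARP9, BST2, GBP2, SP110 and NMI lost theirs at some setting. No call reversed its direction. Over all genes, calls ranged from 834 to 3215 in 30D (2346 as reported) and from 195 to 1069 in 180D (532), and from 727 to 2700 for the difference (1723). Genes near the filter value are limited by low signal.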

Other observations

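Other probe sets of the same genes give a check of the members called in KYSE30. For 12 of those genes, 21 further probe sets passed the filter, and 20 of them changed in the same direction in 30D, though not always by a like amount. The exception was a RIGI probe set that read 6.38 on both 30U arrays and 6.29 and 6.45 in 30D (-0.01), while a further RIGI probe set rose by value from 6.15 and 6.19 to 7.27 and 7.02 (0.98). A second PARP9 probe set read 6.84 and 6.87 in 30U and 6.94 and 6.84 in 30D (0.04), against 0.71 for the one used. In KYSE180 that probe set read 7.20 and 7.26 in 180U and 7.55 and 7.49 in 180D (0.29), above the 0.15 of the one used. A second OAS3 probe set read 5.31 and 5.33 in 30U and 5.35 and 5.60 in 30D (0.16), against 0.99 for the one used, and an SP110 probe set changed by 0.11, against 0.57. These probe sets were chosen after their values were seen, and whether they read different transcripts was not tested.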
